A study of Mus musculus with 20 samples.

Results

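Epididymosomes are extracellular vesicles shed by the epithelium of the epididymis, the duct in which sperm mature. They carry proteins and RNA to passing sperm, and the cauda is the distal segment where sperm are stored. RNA in such vesicles includes fragments of tRNA and rRNA, miRNAs, the Y RNAs that bind the Ro60 protein, spliceosomal snRNAs, snoRNAs that guide chemical modification of rRNA, and pieces of protein-coding transcripts. The broad RNA content of these vesicles is described here for the deposited table labelled with size selection, which holds all 72034 of its annotated RNAs in 10 of the series' 20 samples.

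The 10 libraries came from male mice aged 9 months, 5 Control (animals 3, 5, 7, 9 and 11) and 5 MSUS (animals 2, 4, 6, 8 and 14). MSUS names an early-life stress model in which mouse pups lose the dam at unpredictable times and the dam herself is stressed. Pups were separated for 3 h a day over 14 days after birth, while dams had forced swim or restraint, and Control litters were left untouched. No strain or litter is named in the labels; if littermates are among these animals, the tests treat them as independent. Sperm were pelleted after swim-up in M2 medium and vesicles were collected from the cleared supernatant at 120000 rcf for 2 h, so the pellet holds all particles of that size range. In pooled vesicles, fewer vesicles of one kind and less RNA in each cannot be told apart.

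Totals ran from 1872084 to 3647956 estimated counts per library. Control 9, Control 11 and MSUS 14 had the lowest tRNA shares (14.5, 25.3 and 23.8% of counts) and MSUS 8 the highest (66.0%). These 4 libraries weigh on most results below, and values without some of them are given for several results. The table's content goes against its label: miRNAs took 10.9 to 17.0% of its counts, but 52.4 to 72.2% in the series' other table, labelled without size selection. The design text makes the later run the size-selected one, while the prefixes of the sample descriptions, which read as dates, place run 2 before run 1. These sources do not settle whether the 2 labels were exchanged, so each table is named by its label here.

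Small structured RNAs and gene fragments made up most of the counts, and the mix differed widely between animals of one group. tRNA counts took 37.9, 34.6, 43.6, 14.5 and 25.3% of the library in Control 3, 5, 7, 9 and 11. They took 40.4, 51.1, 41.2, 66.0 and 23.8% in MSUS 2, 4, 6, 8 and 14. The groups overlapped, and the means of 31.2% ± 11.5 and 44.5% ± 15.5 (SD, n = 5 each) did not differ beyond that spread (exact two-sided permutation p = 0.159, adjusted p = 0.349 over 20 classes). The smallest p that this design allows is 0.00794.

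Fragments of protein-coding genes took 20.8, 20.7, 19.7, 31.6 and 25.8% in the Control libraries. The MSUS libraries had 16.5, 13.3, 14.7, 7.48 and 25.2%. All MSUS animals except MSUS 14 lay below every Control animal. The means were 23.7% ± 5.02 and 15.4% ± 6.42 (SD, n = 5 each), a difference of -8.31 percentage points (exact permutation p = 0.0556, adjusted p = 0.317). Without MSUS 14 the difference was -10.7 percentage points and passed the adjusted threshold (exact permutation p = 0.00794, adjusted p = 0.0397), so this animal decides the call. Without MSUS 8 the difference was -6.32 and without Control 9 -6.34 percentage points (exact permutation p = 0.119 each, adjusted p = 0.577 and 0.508). Akr1b7 alone held 7.07% of the class, and without it the difference was -7.34 percentage points (exact permutation p = 0.0794).

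**Figure D1:**
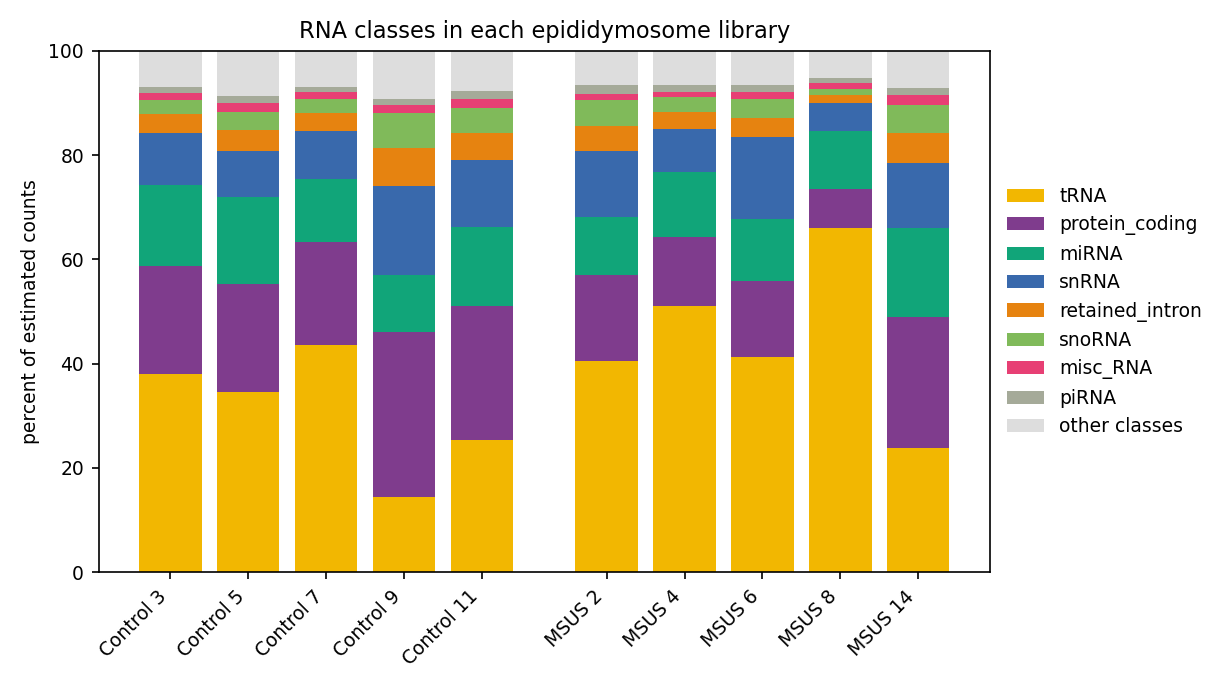
Percent of estimated counts (vertical axis) in 8 RNA classes and all others, one stacked bar per library, Control on the left and MSUS on the right. The purple protein_coding block spans 19.7 to 31.6% in Control and 7.48 to 25.2% in MSUS, and the yellow tRNA block is smallest in Control 9 and largest in MSUS 8.

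Most other abundant classes had closer means. miRNAs averaged 14.0% in Control and 12.7% in MSUS, snRNAs 11.6 and 10.9%, snoRNAs 4.10 and 3.65%, and retained introns 4.68 and 3.74%. Y RNAs and other RNAs annotated as misc_RNA averaged 1.51 and 1.30%, piRNAs 1.22 and 1.33%, and rRNA 1.09 and 1.04%. Their unadjusted exact permutation p-values ran from 0.175 for misc_RNA to 0.881 for rRNA. Relative to their size, means lay farther apart for processed transcripts, at 1.41 and 0.957% (exact permutation p = 0.119, adjusted p = 0.317). The same held for transcripts marked for nonsense-mediated decay, at 1.07 and 0.709% (exact permutation p = 0.0794, adjusted p = 0.317). Directions of the miRNA, snRNA, snoRNA, misc_RNA and rRNA shares reversed when tRNA was left out of the total, as shares of one library must sum to 100%.

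TEC transcripts, unclassified loci still to be tested experimentally, showed the clearest difference in share. Control libraries had 0.529, 0.547, 0.530, 0.639 and 0.539% and MSUS libraries 0.296, 0.323, 0.336, 0.193 and 0.488%. The groups did not overlap, with means of 0.557% ± 0.0466 and 0.327% ± 0.106 (SD, n = 5 each; exact permutation p = 0.00794, adjusted p = 0.159, and adjusted p = 0.0397 without MSUS 14). A single locus, Gm43305 on chromosome 14, supplied 63.2% of TEC counts. Its feature name gives the class TEC, while the GENCODE M21 annotation types the gene as a processed transcript. Without Gm43305 the class differed by -0.0816 percentage points (exact permutation p = 0.0238). Gm43305 itself, named after its values were seen, lay between 3436 and 3640 counts per 1000000 counts of the library (CPM) in Control and between 1311 and 3028 in MSUS. With TMM its groups overlapped, from 2110 to 3462 CPM in Control and from 2031 to 3143 in MSUS, and its log2 fold change was -0.18 beside -0.78 with library size only. Long intergenic RNAs (lincRNA) averaged 0.502% in Control and 0.379% in MSUS (exact permutation p = 0.0238, adjusted p = 0.238). With tRNA left out of the total these means were 0.731 and 0.712% (exact permutation p = 0.778).

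In the table labelled without size selection, made from the same animals, protein-coding fragments averaged 10.5% in Control and 7.48% in MSUS (exact permutation p = 0.0159, adjusted p = 0.0754). TEC loci there averaged 0.459 and 0.314% (exact permutation p = 0.00794, adjusted p = 0.0754), while tRNA averaged 14.1 and 14.4% (exact permutation p = 0.960). The animals are shared, so these values are a repeat reading and not independent support.

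Ratios of classes within a library do not depend on how libraries are scaled. Protein-coding fragments per snRNA count were 2.08, 2.37, 2.11, 1.84 and 2.01 in Control 3, 5, 7, 9 and 11. The same ratio was 1.31, 1.58, 0.935, 1.38 and 2.03 in MSUS 2, 4, 6, 8 and 14. MSUS 14 again lay within the Control range and the other MSUS animals below it. Per piRNA count the ratio was 19.1, 15.0, 21.0, 27.5 and 16.9 in Control and 10.3, 10.9, 10.7, 7.17 and 17.8 in MSUS.

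On the log2 scale, protein-coding fragments lay lower in MSUS by -0.84 against piRNA, by -0.56 against snRNA and by -0.46 against misc_RNA (exact permutation p = 0.0238, 0.0238 and 0.0317). Against miRNA the difference was -0.56 (exact permutation p = 0.0873) and against rRNA -0.70 (exact permutation p = 0.198). The log2 ratio of tRNA to protein-coding fragments differed by 1.24 (exact permutation p = 0.111). None of the 45 pairs of the 10 largest classes passed adjustment (smallest adjusted p = 0.286), with or without MSUS 14. Against processed transcripts, the other fragments of spliced genes, the difference was only -0.05 (exact permutation p = 0.183). The log2 SD of this ratio was 0.066 in Control and 0.057 in MSUS. One gene can have features in both classes, as Mfsd2a does, so the 2 classes are not separate readings.

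**Figure D2:**
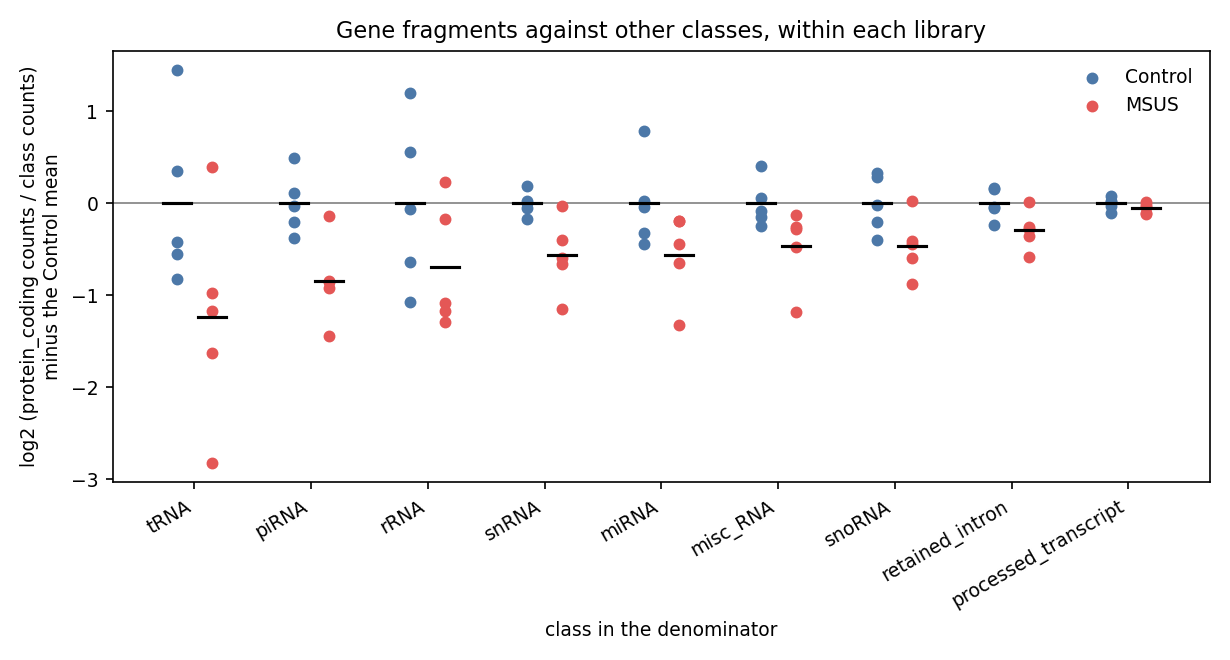
log2 ratio of protein_coding counts to the counts of another class within each library, minus the Control mean (vertical axis), for 9 classes. Points are libraries and black bars group means; MSUS means lie below 0 for each class, farthest for tRNA and least for processed_transcript at -0.05, and the highest MSUS point in most columns is MSUS 14.

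Fewer kinds of RNA were seen in MSUS libraries at matched depth, within the spread between animals. After each library was reduced to 1870226 counts, 33622 ± 1523 features had at least 1 count in Control and 31312 ± 2250 in MSUS (SD, n = 5 each; exact permutation p = 0.0952). MSUS 8, with the highest tRNA share, had the fewest at 27671. Leaving out MSUS 14 gave a difference of -2950 features (exact permutation p = 0.0397), and leaving out Control 7 gave -2854 (p = 0.0476). Without MSUS 8 the difference was -1399 (exact permutation p = 0.198), and without Control 9 it was -1936 (p = 0.175).

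Features were then compared one by one, for the 10998 with enough counts. The first fit used trimmed mean of M-values (TMM) scaling, which places the typical feature at no change. Because 7339 of the tested features were protein-coding, the typical feature here is a gene fragment, and a fold change reads as the change relative to gene fragments. With scaling by library size only, a fold change reads as the change in share of all counts. The median log2 fold change over all features was -0.00 with TMM and -0.57 with library size only, a shift of -0.57 against which each direction below has to be read: 32 of the 65 named features changed sign between these scalings. TMM factors ran from 0.417 in MSUS 8 to 1.73 in Control 9.

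With TMM, edgeR's quasi-likelihood test with Benjamini-Hochberg adjustment called 0 of 10998 features (0%), as did voom in limma. At an unadjusted p under 0.05, 379 features (3.45%) lay higher in MSUS and 261 (2.37%) lower. DESeq2, which gave an adjusted p for only 550 of these features, called 33 features, 32 (5.82%) higher in MSUS and 1 (0.182%) lower. Every MSUS library lay above every Control library for 43 features (0.391%) and below for 53 (0.482%). Random labels would leave no overlap, in either direction, with a probability of 0.00794 per feature, so these shares are near that level.

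With library size only, 3 features (0.0273%) passed, all lower in MSUS, both features of Mfsd2a and Prdm10. At an unadjusted p under 0.05, 2315 features (21.0%) lay lower and 4 (0.0364%) higher. Groups did not overlap for 408 features with MSUS below (3.71%) and for 1 with MSUS above (0.00909%). Without MSUS 14 the number called rose from 3 to 7778, of which 7761 were lower and 5627 protein-coding. Leaving out any other single library gave between 0 and 5 calls. Features of one library share its scale, so these calls are not separate observations.

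Most tested members of the small RNA classes had positive log2 fold changes with TMM, although no feature passed adjustment, and members of a class share the scale of each library. All 22 tested tRNA features, which are named by amino acid, had positive log2 fold changes with TMM (median 1.14), and 16 had an unadjusted p under 0.05. The median tRNA was 0.32 with library size only. All 12 rRNA features (median 1.09), all 18 mitochondrial tRNAs (0.74), 88 of 89 piRNAs (0.81), 261 of 266 miRNAs (0.51), 87 of 91 snRNAs (0.45), 28 of 30 misc_RNAs (0.39) and 192 of 205 snoRNAs (0.35) were also positive with TMM. With library size only, the median stayed above 0 for rRNA (0.43) and piRNA (0.16) and turned negative for mitochondrial tRNA (-0.10), miRNA (-0.12), snRNA (-0.23), misc_RNA (-0.29) and snoRNA (-0.26). By comparison, 5456 of all 10998 features were positive with TMM, and 379 (3.45%) lay higher at an unadjusted edgeR p under 0.05.

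Several long RNA classes had medians within 0.1 of that of all features under both scalings. Protein-coding features had 3275 positive and 4064 negative values (median -0.03, and -0.59 with library size only). Retained introns had 547 of 1156 positive (median -0.01 and -0.57), processed transcripts 289 of 615 (-0.01 and -0.59) and transcripts marked for nonsense-mediated decay 245 of 545 (-0.02 and -0.59). TEC loci had 12 of 30 positive (-0.09 and -0.65). Processed pseudogenes, copies of spliced genes, had 260 of 409 positive (0.04 and -0.52). Long intergenic RNAs lay higher than these, with 32 of 50 positive (median 0.22 and -0.35), as did antisense RNAs with 12 of 20 positive (0.12 and -0.47).

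**Figure D3:**
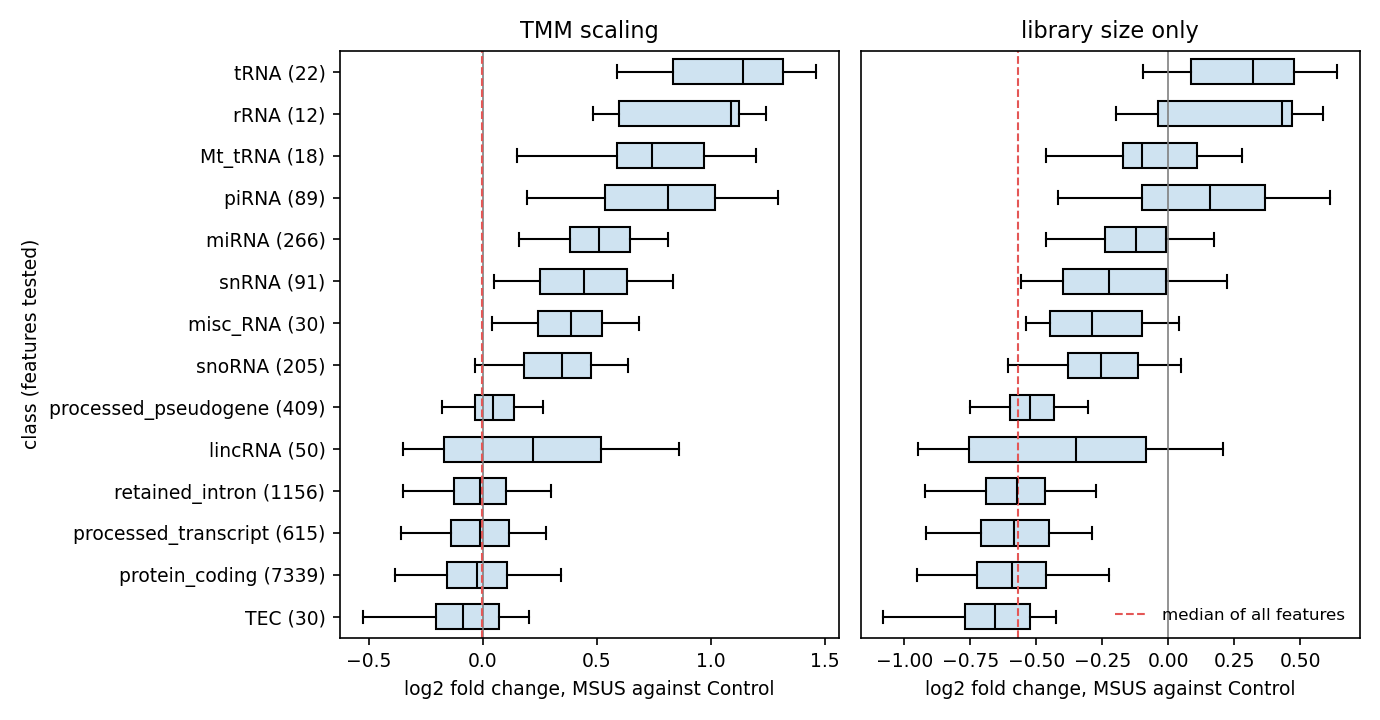
log2 fold changes of MSUS against Control (horizontal axis) for 14 classes with the number of tested features, under TMM scaling on the left and library size only on the right. Boxes are quartiles with the median, whiskers the 5th and 95th percentiles, and the dashed line is the median of all features. That median moves left by 0.57 from one panel to the other, and the tRNA median moves farther, from 1.14 to 0.32. The small RNA classes stay to the right of the long RNA classes in both.

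Protein-coding genes were also split by transcript length. The median log2 fold change with TMM was 0.03 in the shortest of 5 equal groups and -0.06 in the longest, with 811 of 1423 and 521 of 1422 genes positive. The difference between the ends of this range was small beside the gap to the small RNA classes.

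Several sequences show which molecules these features are and how they share reads. All come from the GENCODE M21 annotation of GRCm38 and are written 5′ to 3′. U1 snRNA, which recognises the 5′ splice site, was the most counted snRNA, and the copies Gm22317 (chr12:54738459-54738622, minus strand) and Gm22513 (chr12:54696782-54696945, plus strand) are shown because they differ by a single substitution, T60C counted from the 5′ end of Gm22317, marked in capitals.
Gm22317: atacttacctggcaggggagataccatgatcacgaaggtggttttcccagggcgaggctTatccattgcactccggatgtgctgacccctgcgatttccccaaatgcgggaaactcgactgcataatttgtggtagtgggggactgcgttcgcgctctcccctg
Gm22513: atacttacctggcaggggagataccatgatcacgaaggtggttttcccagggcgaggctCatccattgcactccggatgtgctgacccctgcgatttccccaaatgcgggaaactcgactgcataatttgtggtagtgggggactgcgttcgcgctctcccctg

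Gm22317 shares its sequence and its counts with 6 further annotated copies, Rnu1a1 among them, so these 7 features are one measurement. Its TMM-scaled level was 5245, 4551, 5076, 5004 and 5416 CPM in Control and 7554, 6662, 11696, 7698 and 5116 in MSUS. MSUS 14 lay within the Control range, the other MSUS animals above it. The log2 fold change was 0.61 ± 0.26 (SE; edgeR adjusted p = 0.837) with TMM, -0.03 with library size only, and DESeq2 gave an adjusted p of 0.0362. The 14 snRNAs that DESeq2 called are mostly such U1 copies.

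The Y RNAs Rny1 (chr6:47788069-47788180, minus strand) and Gm26168 (chr6:122623547-122623658, plus strand), an annotated misc_RNA, are shown together because Gm26168 had one of the 5 smallest p-values among features higher in MSUS. In an alignment with the fewest edits they differ by 11 single-base edits, marked in capitals.
Rny1: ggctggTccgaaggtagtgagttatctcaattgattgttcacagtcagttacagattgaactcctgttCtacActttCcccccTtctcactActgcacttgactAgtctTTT
Gm26168: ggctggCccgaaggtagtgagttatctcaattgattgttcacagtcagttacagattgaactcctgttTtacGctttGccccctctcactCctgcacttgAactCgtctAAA

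Gm26168 had 23.3, 29.5, 22.9, 18.9 and 32.3 CPM in Control and 49.3, 45.3, 45.7, 61.0 and 29.5 in MSUS. Only MSUS 14 lay within the Control range. The log2 fold change was 0.83 ± 0.19 (SE; edgeR adjusted p = 0.837), and 0.19 with library size only. Reads of near-identical copies can be split between them, so a single copy is uncertain. Rny1 had 6450, 6009, 5106, 4468 and 6017 CPM in Control and 7582, 6467, 7832, 11717 and 6745 in MSUS, where every MSUS animal lay above every Control animal (log2 fold change 0.52 ± 0.26, adjusted p = 0.875, and -0.12 with library size only). The lowest MSUS and highest Control values of Rny1, 6467 and 6450 CPM, were close, and 0.391% of all features had every MSUS library above. Rny3, the second abundant Y RNA, had a log2 fold change of 0.40 ± 0.23.

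Box C/D snoRNAs guide methylation of rRNA and carry a C box (TGATGA) near the 5′ end and a D box (CTGA) near the 3′ end, written in capitals for 3 named members. Gm23017 (chr9:88598348-88598419, minus strand) had the smallest p of all features that lay higher, Snord83b (chr15:80078498-80078591, minus strand) lies in an intron of Rpl3, and Snord49a (chr11:62603450-62603521, plus strand) in an intron of 2410006H16Rik.
Gm23017: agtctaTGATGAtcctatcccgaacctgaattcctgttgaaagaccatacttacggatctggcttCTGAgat
Snord83b: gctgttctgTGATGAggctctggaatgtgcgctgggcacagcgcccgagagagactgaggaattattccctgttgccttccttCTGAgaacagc
Snord49a: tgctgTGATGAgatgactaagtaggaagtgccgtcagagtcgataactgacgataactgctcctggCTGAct

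On the transcript strand, 42.6% of 679 annotated snoRNAs hold TGATGA followed by CTGA. Of the tested snoRNAs 110 hold both, of which 105 had positive values (median 0.38 with TMM, -0.21 with library size only) and 35 had an unadjusted p under 0.05. Among the other 95, 87 were positive (median 0.28 and -0.30) and 14 had an unadjusted p under 0.05. Over all features 3.45% lay higher at that level, and snoRNAs share the scale of each library. A match to these letters is a description and not a call of the snoRNA type.

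Gm23017 had 40.9, 37.5, 34.3, 38.7 and 37.9 CPM in Control and 73.2, 52.9, 67.6, 50.3 and 47.7 in MSUS. The groups did not overlap, as for 0.391% of all features with MSUS above. The log2 fold change was 0.63 ± 0.13 (edgeR adjusted p = 0.837), but with library size only it was 0.04. Gm23017 lies in an exon of the lincRNA 9430037G07Rik, whose level differed from it by under 2 CPM in each library (log2 fold change 0.61 ± 0.13). The 2 features are therefore not separate observations. Snord83b had 1121, 1417, 1280, 1303 and 1547 CPM in Control and 2592, 2192, 1968, 1389 and 1804 in MSUS (log2 fold change 0.58 ± 0.22, DESeq2 adjusted p = 0.0362, edgeR adjusted p = 0.837). MSUS 8 was the only MSUS library within the Control range. Snord49a had a log2 fold change of 0.34 ± 0.24.

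Several long RNAs have snoRNAs annotated within the span of their gene. Gas5 and Snhg1, host genes whose introns encode snoRNAs, had log2 fold changes of 0.34 ± 0.27 and 0.48 ± 0.26 as retained introns. Their gene spans overlap 10 and 8 annotated snoRNAs. Of 9 tested snoRNA host transcripts 7 were positive with TMM (median 0.38, and -0.21 with library size only). Rpl7a as a processed transcript, with 3 snoRNAs within the gene span, gave 0.14 ± 0.24. Such features cannot separate host RNA from snoRNA.

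The most counted tRNA features are named for glycine and glutamate, the isotypes whose 5′ fragments are known to be abundant in epididymal vesicles and mature sperm. Gly had 277720, 240587, 320587, 60381 and 148704 CPM with TMM in Control and 339098, 552628, 389997, 1213180 and 133400 in MSUS. MSUS 8 was far above the rest and MSUS 14 within the Control range. A TMM-scaled value above the whole library's CPM sum, as in MSUS 8, shows how far the scale there follows gene fragments and not the total. The log2 fold change was 1.33 ± 0.61 (edgeR adjusted p = 0.857) with TMM and 0.50 ± 0.32 with library size only. Glu gave 1.45 ± 0.58 and 0.61 ± 0.33. His, which DESeq2 called (adjusted p = 0.0362), had 764, 1770, 2027, 789 and 882 CPM in Control and 4760, 3758, 3146, 6296 and 557 in MSUS. MSUS 14 was the lowest of all 10 for His and the other MSUS animals were the 4 highest (log2 fold change 1.57 ± 0.51, edgeR adjusted p = 0.837).

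Among piRNA identifiers, mmu_piR_000935 had 4664, 5064, 4139, 4157 and 7152 CPM in Control and 11387, 7808, 8772, 9893 and 6530 in MSUS. Only MSUS 14 lay within the Control range (log2 fold change 0.82 ± 0.27, edgeR adjusted p = 0.837, DESeq2 adjusted p = 0.0112, and 0.19 with library size only). For rRNA, n-R5-8s1, a 5.8S rRNA gene, gave 0.55 ± 0.43 with wide overlap, from 2860 to 14301 CPM in Control and from 5765 to 16571 in MSUS.

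miRNAs followed the other small RNAs. The most counted was miR-148a-3p, shown with its seed (bases 2 to 8) in capitals, from RefSeq on GRCm38.p6 (chr6:51269829-51269850, minus strand).
miR-148a-3p: uCAGUGCAcuacagaacuuugu
It had a log2 fold change of 0.61 ± 0.41 (edgeR adjusted p = 0.895) with TMM and -0.10 with library size only. miR-143-3p gave 0.71 ± 0.31 and 0.15 ± 0.34. miR-34c-5p, abundant in the male germ line and named here after its values were seen, had 883, 686, 811, 327 and 584 CPM in Control and 1226, 1703, 1375, 1510 and 682 in MSUS (log2 fold change 0.98 ± 0.29, edgeR adjusted p = 0.837, DESeq2 adjusted p = 0.0362, and 0.36 ± 0.36 with library size only). Its MSUS 14 value lay within the Control range.

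Mfsd2a was among the protein-coding genes of smallest p on the lower side. It encodes a transporter of lysophosphatidylcholine that carries the omega-3 fatty acid docosahexaenoic acid into cells. Its protein-coding feature had 8.08, 19.5, 18.3, 24.7 and 20.1 CPM in Control and 8.83, 8.93, 11.9, 7.18 and 7.75 in MSUS. Control 3 lay within the MSUS range and the other Control animals above it. The log2 fold change was -1.09 ± 0.24 (SE; edgeR adjusted p = 0.837) with TMM and -1.66 ± 0.38 (adjusted p = 0.0369) with library size only. Without Control 3 the TMM fit called it (log2 fold change -1.24, adjusted p = 0.0182). With all libraries it also passed under TMM when low counts were not filtered (log2 fold change -1.16, edgeR adjusted p = 6.5e-06). It passed with scaling from miRNAs as well (log2 fold change -1.63, edgeR adjusted p = 0.0242). The processed_transcript feature of the same gene (chr4:122946850-122961188, minus strand) gave -1.15 ± 0.25, with 6.29 CPM in Control 3 and 16.6 to 20.2 in the other Control animals, and is not a separate observation.

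Prdm10, which encodes a zinc finger transcription factor, passed with library size scaling and with scaling from miRNAs (edgeR adjusted p = 0.0265), and did not with TMM. By library size its levels were 17.2, 43.3, 14.6, 18.5 and 10.7 CPM in Control and 6.75, 8.0, 3.05, 5.24 and 6.56 in MSUS. Control 5 was far above the rest, and no MSUS library reached a Control library (log2 fold change -1.78 ± 0.38, edgeR adjusted p = 0.0361). On that scale the same held for 408 of all 10998 features (3.71%). With TMM the groups overlapped and the value was -1.15 ± 0.50 (adjusted p = 0.854).

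Other features with the smallest p-values on the lower side were Prr15, Cul4b and Scand1, all at an edgeR adjusted p of 0.837. Prr15, a proline-rich protein of epithelia, had 30.1, 31.4, 34.3, 27.0 and 35.5 CPM in Control and 18.4, 24.7, 23.8, 21.5 and 16.7 in MSUS (log2 fold change -0.63 ± 0.13, and -1.20 ± 0.36 with library size only). Cul4b, the scaffold of a ubiquitin ligase on the X chromosome, had 20.2, 17.1, 18.3, 22.1 and 23.1 CPM in Control and 14.7, 15.1, 13.8, 9.87 and 14.0 in MSUS (-0.57 ± 0.14). Scand1 had 9.88, 9.03, 11.8, 7.80 and 9.23 CPM in Control and 6.62, 6.18, 5.63, 5.39 and 5.33 in MSUS (-0.67 ± 0.16). The groups did not overlap for any of these 3 genes, which were picked for small p. The same held for 53 of all 10998 features (0.482%). All 3 had under 36 CPM in every library, so each value rests on few counts.

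On the higher side stood 4930571K23Rik, a lincRNA on chromosome 7, and Smcp, which encodes a protein of the mitochondrial capsule of sperm. 4930571K23Rik had 13.9, 18.5, 13.3, 14.6 and 15.8 CPM in Control and 21.7, 22.7, 25.0, 25.1 and 20.1 in MSUS (log2 fold change 0.57 ± 0.13, adjusted p = 0.837). Smcp had 132, 136, 108, 116 and 153 CPM in Control and 197, 218, 179, 210 and 169 in MSUS, without overlap (0.59 ± 0.14, edgeR adjusted p = 0.837, DESeq2 adjusted p = 0.00415). With library size only both log2 fold changes were -0.02. With TMM, 0.391% of all features had every MSUS library above every Control library.

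**Figure D4:**
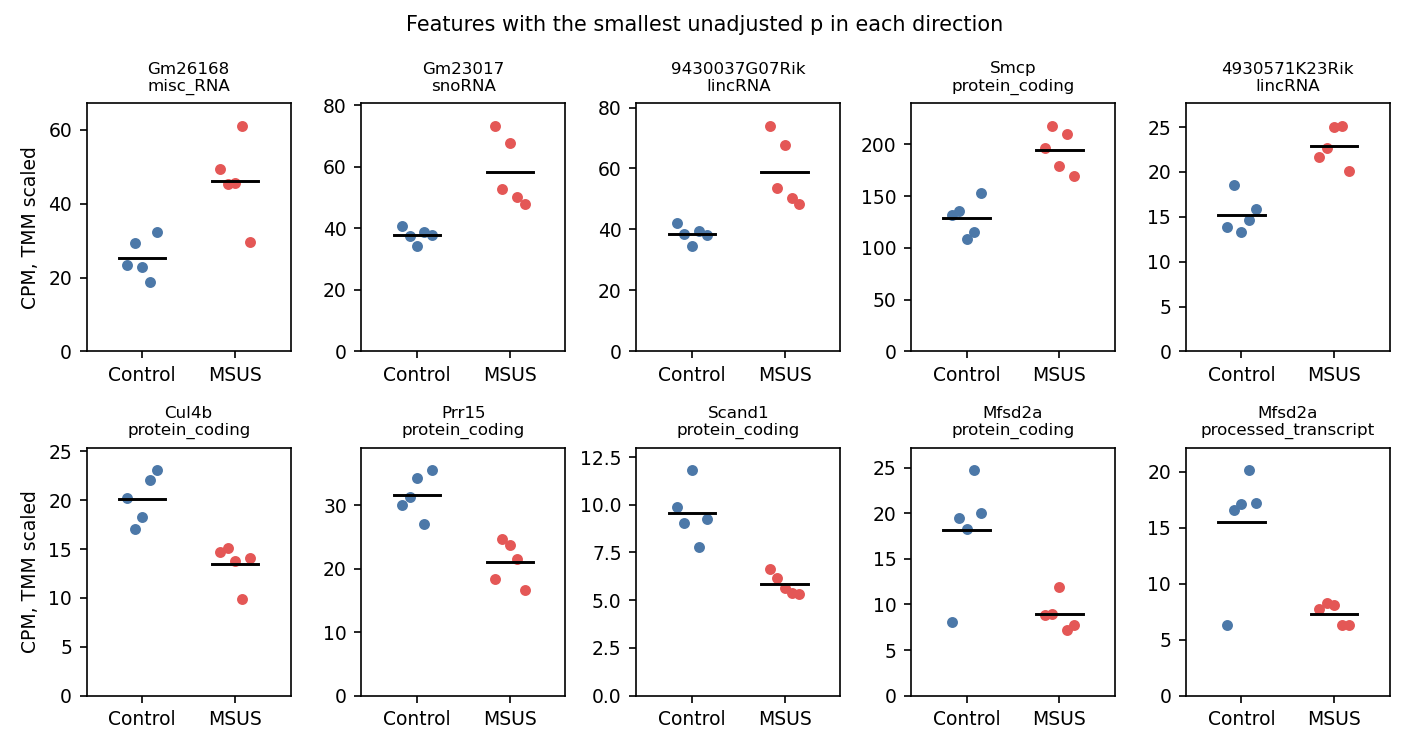
TMM-scaled CPM (vertical axis from 0) in Control (blue) and MSUS (red) for the 5 features of smallest unadjusted edgeR p among those higher and among those lower. Each point is a library and black bars are means; Control 3 is the low Control point of both Mfsd2a panels, and Gm23017 lies in an exon of 9430037G07Rik.

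Smcp belonged to a list of sperm and spermatid transcripts, whose 19 tested members of 32 were all positive with TMM. Their median was 0.49, beside -0.00 over all features. Of the 19, 6 had an unadjusted edgeR p under 0.05, where 3.45% of all features lay higher at that level. Members share the scale of each library, so they are not separate observations. In the table labelled without size selection, 4 of 4 tested members were positive (median 0.23). Protein-coding features there had a median of -0.20 with TMM (106 of 516 positive). A value of 0 in that table is therefore not the level of the typical gene fragment. Odf1, a protein of the sperm tail's outer dense fibres, gave 0.59, Prm2, a protamine that packs sperm chromatin, 0.56, Dbil5 0.64 and Prm1 0.13. With library size only the median was -0.13 and 1 member was positive. The list's summed level ran from 1885 to 3055 CPM of protein-coding counts in Control and from 2791 to 4301 in MSUS. Whether carried-over sperm material has a part in any result was not tested.

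Smooth muscle transcripts, from the contractile coat of the cauda, likewise had all 17 tested members of 19 positive (median 0.54). Of these, 6 had an unadjusted edgeR p under 0.05, where 3.45% of all features lay higher at that level. In the table labelled without size selection, 3 of 5 tested members were positive (median 0.06, beside -0.20 for protein-coding features there). Smtn, a cytoskeletal protein of smooth muscle, gave 0.95, Tpm2 0.75, Myh11, the smooth muscle myosin heavy chain, 0.68, and Acta2, smooth muscle actin, 0.54. Tpm1, a tropomyosin, had 23.3, 22.8, 25.9, 30.1 and 34.9 CPM in Control and 38.3, 37.8, 52.6, 24.2 and 47.7 in MSUS (log2 fold change 0.55 ± 0.17, adjusted p = 0.837). MSUS 8 lay within the Control range. With library size only the list median was 0.03 and 9 members were positive, so its median was above 0 on both scales, as were those of tRNA, rRNA and piRNA. Summed levels ran from 3420 to 6153 CPM of protein-coding counts in Control and from 3989 to 9903 in MSUS, and the part of muscle RNA in other results was not tested.

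Stroma transcripts had 13 of 15 positive (median 0.22, and -0.36 with library size only), led by fibronectin, Fn1, at 0.69 ± 0.21, while the abundant proteoglycan gene Dcn gave 0.15 ± 0.16. Blood and immune transcripts had 7 of 10 positive (median 0.11 and -0.47). Igkc, the immunoglobulin kappa constant chain, gave -1.14, and -0.21 without Control 9, which had 57.4 CPM beside 3.43 to 37.7 in the other Control animals. In the same list, Cd74, the chaperone of antigen-presenting molecules, gave 0.07 ± 0.17 and C1qa, a complement subunit, 0.54 ± 0.26. None of 12 endothelial genes had enough counts to be tested, with at most 65 counts over all libraries.

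Transcripts of the epididymal epithelium, which makes these vesicles, followed the typical gene fragment. Of 16 tested secreted protein genes 8 were positive with TMM (median 0.03, and -0.53 with library size only). Crisp1, a secreted protein that coats sperm, had 1570, 1776, 2031, 2381 and 2191 CPM in Control and 2313, 1768, 2109, 1607 and 1880 in MSUS (log2 fold change -0.04 ± 0.21), with overlapping groups. Gpx5, a secreted glutathione peroxidase, gave 0.45 ± 0.27 at under 10 CPM. Akr1b7, an aldose reductase-like enzyme and the most counted gene, gave -0.41 ± 0.28 (edgeR adjusted p = 0.895) and -1.05 ± 0.35 with library size only. In the table labelled without size selection it gave -0.63 with TMM, beside a median of -0.20 for protein-coding features there. The list took 1.93 to 3.01% of all counts in Control and 0.660 to 1.76% in MSUS. Akr1b7 alone supplied most of this sum, at 15324 to 23834 CPM by library size in Control and 5310 to 10949 in MSUS. Per protein-coding count the list's groups overlapped, at 90869 to 116356 CPM of protein-coding counts in Control and 69749 to 94506 in MSUS.

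Epithelial structure and transport genes had 6 of 18 positive (median -0.06 and -0.64). The water and glycerol channel Aqp9 had 46.2, 48.0, 55.2, 55.6 and 56.8 CPM in Control and 41.9, 39.8, 36.9, 48.5 and 43.6 in MSUS (log2 fold change -0.32 ± 0.11, edgeR adjusted p = 0.837). MSUS 8 was the only MSUS library within the Control range. Cdh1, the epithelial cadherin, gave -0.30, and the keratin Krt19 -0.03 ± 0.15. Krt5, a basal cell keratin, gave 0.50.

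Of 13 mRNAs of the mitochondrial genome 12 were positive with TMM (median 0.43, and -0.29 with library size only), with mt-Nd5, a subunit of complex I, at 0.65 ± 0.28. mt-Nd5 had 22.4, 31.4, 26.3, 33.7 and 31.5 CPM in Control and 42.7, 58.4, 32.6, 83.5 and 24.7 in MSUS, with MSUS 8 highest and MSUS 6 and MSUS 14 within the Control range. Of 81 nuclear genes of the respiratory chain 41 were positive (median 0.00 and -0.57), with Atp5a1, an ATP synthase subunit, at -0.02 ± 0.15. The difference between these lists was not tested.

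Medians of the 2 lists of translation transcripts stayed close to the typical fragment. Ribosomal protein genes had 68 of 83 positive with a median of 0.08, and -0.50 with library size only. They were positive more often than all features (5456 of 10998) or protein-coding features (3275 of 7339), and members share the scale of each library. Their summed levels were 14838 to 15731 CPM of protein-coding counts in Control and 15660 to 18864 in MSUS. Rpl4 gave 0.06 ± 0.11 and Rpl37a 0.33 ± 0.14. Translation factors had 8 of 19 positive (median -0.01 and -0.57), with Eef1a1, the most counted, at -0.00 ± 0.16.

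The nuclear-retained RNAs Neat1, Malat1 and Kcnq1ot1 had log2 fold changes of -0.54, -0.30 and -0.17 with TMM. Short structured members were positive, with Rpph1, the RNA of RNase P, at 0.55 ± 0.22, Rmrp, the RNA of RNase MRP, at 0.44 and Rn7sk, which holds the elongation factor P-TEFb, at 0.10. Of the 12 tested, 9 were positive (median 0.42, and -0.26 with library size only), and none passed adjustment.

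Lists that early stress might touch gave medians near that of all features. Glucocorticoid response genes had 9 of 14 positive (median 0.12, and -0.43 with library size only). Klf9, a transcription factor induced by glucocorticoids, had 10.3, 14.3, 9.14, 9.92 and 10.8 CPM in Control and 6.99, 8.93, 8.14, 8.98 and 6.54 in MSUS. These did not overlap, as for 0.482% of all features with MSUS below (log2 fold change -0.50 ± 0.16, edgeR adjusted p = 0.837). Fkbp5, a co-chaperone of the glucocorticoid receptor, gave -0.14 ± 0.11. Antioxidant genes had 12 of 22 positive (median 0.04 and -0.54), with Txnrd1, a thioredoxin reductase, at -0.31 ± 0.13 and Gpx3 at 0.07 ± 0.18. Chaperones had 11 of 18 positive (median 0.02 and -0.56), with Hsp90ab1 at 0.01 ± 0.16. Vesicle and ESCRT genes, which build and sort vesicles, had 12 of 24 positive (median 0.00 and -0.56), with Anxa2 at 0.17 ± 0.13 and Flot2 at 0.73 ± 0.20 from under 9 CPM. Histone genes had 18 of 24 positive (median 0.14 and -0.42), with H3f3a at -0.03 ± 0.12.

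**Figure D5:**
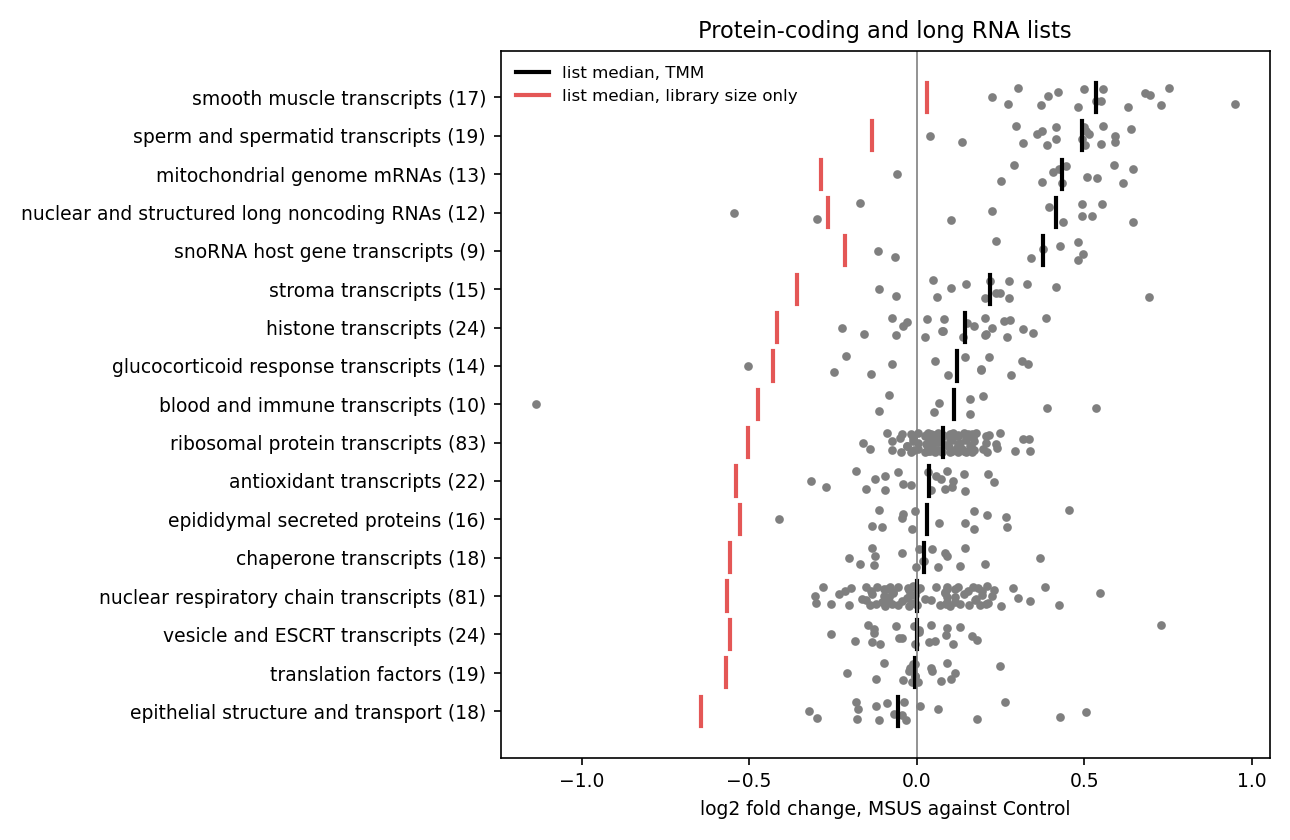
log2 fold changes of MSUS against Control (horizontal axis) of the tested members of 17 transcript lists, with the number of members tested in brackets. Grey points are genes with TMM scaling, black bars list medians with TMM and red bars list medians with library size only; smooth muscle and sperm lists stand at 0.54 and 0.49 on the first scale and at 0.03 and -0.13 on the other.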

How the data were processed

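The authors deposited estimated counts, often fractional, for each annotated RNA. The submitters' processing notes name GRCm38, STAR and edgeR; the rule for assigning reads to features was not given in the sources used here. Column names carry the animal but not the run, which was taken from the table's label. Groups came from the sample titles, and no batch is labelled within this table. Estimated counts were rounded (0.0504 to 0.0992% of counts lost), and classes were read from feature names. Class shares, class ratios (classes over 1% of counts) and detected features were compared by exact two-sided permutation tests. Each feature went through edgeR 4.0.16 under R 4.3.3 (filterByExpr, TMM, robust quasi-likelihood test, Benjamini-Hochberg threshold 0.05); SE was derived from the F statistic. DESeq2 1.42.0, voom in limma 3.58.1, other scalings and filters, and leaving out each library were alternatives. Coordinates and overlaps are from GENCODE M21.

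The comparison and the 18 lists were chosen with earlier results of these data known. Named features are the 2 most counted of each class, the 5 smallest p-values per direction under TMM, those under library size, and the most counted and smallest-p member of each list; other list members are examples chosen after their values were seen. Depth limits precision for features at few CPM.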

Additional observations from a re-analysis of the deposited data

Results flagged for a closer look

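A library was marked where the gap between it and its nearest neighbour was large relative to the range of its group of 5 (Dixon's test at 95%). Of 156 groups checked, over 78 quantities, 15 were marked; chance marks about 1 group in 20. The explanations were not tested. MSUS 14 had a miRNA share of 17.0%, where the other MSUS libraries had 11.2 to 12.3%. Control 9 had the highest TEC share at 0.639%, the highest lincRNA share at 0.667% and, for Snhg12, 118.7 CPM. MSUS 8 was highest for Rny1 (11717 CPM), Rny3 (3043 CPM), the 5S rRNA gene n-R5s136 (31.4 CPM) and the valine tRNA feature (70488 CPM), and lowest for Cul4b (9.87 CPM). Control 3 was lowest for the processed_transcript feature of Mfsd2a (6.29 CPM) and for Eef1d (25.1 CPM), and MSUS 6 was lowest in its group for Eef1d (31.3 CPM). Control 11 was highest for Hist1h1d (6.82 CPM), Control 7 for n-R5s136 (9.52 CPM) and Control 5 for Prdm10 (38.5 CPM).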

How the results depend on the processing

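Scaling by library size or by miRNAs moves all features down together, so small positive values turn negative by construction, which holds for 32 and 23 of the 65 named features. For the other changes the cause was not tested. No paired analysis was possible because Control and MSUS share no animal number. Precision is limited by the 5 animals per group for class shares and by counts for features at few CPM. The log2 fold changes that changed sign with library size only were -0.024 for 4930571K23Rik, -0.017 for Smcp, -0.10 for miR-148a-3p, -0.040 for Gm22513, -0.026 for Gm22317, -0.21 for Gas5, -0.11 for Snhg1, -0.20 for Snord49a, -0.12 for Rny1, -0.24 for Rny3, -0.11 for mmu_piR_027673, -0.38 for Rpl7a, -0.30 for Gnb2l1, -0.060 for n-R5-8s1, -0.20 for Gm24601, -0.13 for Gpx5, -0.24 for Flna, -0.40 for Dcn, -0.49 for Cd74, -0.080 for C1qa, -0.51 for Rpl4, -0.25 for Rpl37a, -0.32 for Eef1d, -0.29 for mt-Co1, -0.091 for mt-Nd5, -0.23 for Ndufa2, -0.15 for Rpph1, -0.23 for Snhg12, -0.38 for Anxa2, -0.57 for Hsp90ab1, -0.46 for Gpx3 and -0.17 for Hist1h1d.

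With TMM factors and library sizes taken from miRNAs alone, they were -0.18 for Gas5, -0.063 for Snhg1, -0.15 for Snord49a, -0.0040 for Rny1, -0.14 for Rny3, -0.0025 for mmu_piR_027673, -0.37 for Rpl7a, -0.25 for Gnb2l1, -0.051 for Gpx5, -0.25 for Flna, -0.39 for Dcn, -0.49 for Cd74, -0.46 for Rpl4, -0.20 for Rpl37a, -0.28 for Eef1d, -0.15 for mt-Co1, -0.16 for Ndufa2, -0.029 for Rpph1, -0.18 for Snhg12, -0.35 for Anxa2, -0.51 for Hsp90ab1, -0.44 for Gpx3 and -0.11 for Hist1h1d. Without a filter on low counts the values were -0.0077 for Cd74, -0.029 for Rpl4, -0.085 for Hsp90ab1 and -0.0045 for Gpx3. With TMM from protein-coding features they were 0.024 for Eef1a1 and 0.0041 for Atp5a1, and with protein-coding features fitted alone 0.025 for Eef1a1 and 0.0057 for Atp5a1. With upper quartile factors Eef1a1 gave 0.0095, with DESeq2 0.00017, and with voom H3f3a gave 0.0058. Without the 3 libraries of lowest tRNA share, chosen after seeing the data, the values were 0.13 for Crisp1, -0.0023 for Cd74, 0.11 for Atp5a1 and 0.079 for H3f3a. When each library was left out in turn, the ranges that crossed 0 were -0.11 to 0.032 for Crisp1, -0.10 to 0.018 for Krt19, -0.067 to 0.19 for Cd74, -0.042 to 0.037 for Eef1a1, -0.10 to 0.039 for Atp5a1, -0.028 to 0.038 for Hsp90ab1, -0.00018 to 0.15 for Gpx3 and -0.080 to 0.046 for H3f3a.

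The median log2 fold change of all features was -0.57 with library size only, -0.52 with miRNA scaling, 0.0034 with RLE factors, 0.025 with TMM from protein-coding features, 0.0099 with upper quartile factors, 0.0032 with DESeq2, 0.0045 with voom, -0.023 with no filter, -0.0074 with a mean of at least 50 counts, 0.0030 for protein-coding features alone, 0.0085 without the 3 libraries of lowest tRNA share and -0.0092 to 0.0075 with each library left out. The number of features passing adjustment went from 0 to 3 with library size only, 3 with miRNA scaling, 33 with DESeq2 and 48 with no filter, and was 0 to 2 with each library left out, the 2 being without Control 3. Under library size scaling it was 0 to 7778 with each library left out and 47 without the 3 libraries of lowest tRNA share. Features higher at an unadjusted edgeR p under 0.05 numbered 4 with library size only, 17 with miRNA scaling, 2036 with no filter, 174 with a mean of at least 50 counts, 211 for protein-coding features alone, 569 without those 3 libraries and 317 to 612 with each library left out. Features lower numbered 2315, 1972, 1273, 112 and 147 under the first 5 of these settings, 107 with DESeq2 and 190 to 397 with each library left out. The highest of these was without MSUS 14 for features higher and without Control 9 for features lower.

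Among class shares, in percentage points, leaving tRNA out of the total turned miRNA to 2.91, snRNA to 2.79, snoRNA to 0.503, misc_RNA to 0.182 and rRNA to 0.287. Centred log ratios were 0.043 for miRNA, 0.048 for snRNA and 0.18 for rRNA. Without the 3 libraries of lowest tRNA share, snRNA was 1.16 and snoRNA 0.263. With each library left out, the difference was -10.7 to -6.32 for protein_coding, -0.270 to -0.196 for TEC, -1.92 to 0.670 for snRNA, -0.905 to 0.235 for snoRNA, -0.328 to -0.140 for misc_RNA and -0.176 to 0.142 for rRNA. Features detected at equal depth differed by -2950 to -1399, and 3 to 11 of 45 class pairs had an unadjusted exact permutation p under 0.05. Over all alternatives, 338 list medians moved by less than the spread between MSUS libraries and 34 by more.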

Other observations

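The 48 features that passed in the fit without a filter on low counts, 40 of them higher in MSUS, included 36 that the filtered fit also tested. Of the 65 named features 6 passed there, both Mfsd2a features among them (edgeR adjusted p = 6.5e-06 each). The others were miR-34c-5p, Gm26168, Prr15 and the glycine tRNA feature (edgeR adjusted p = 0.0149, 0.0155, 0.0296 and 0.0474). The immunoglobulin constant genes Ighm and Igkc gave log2 fold changes of -0.94 and -1.14 with TMM and -1.68 and -1.86 with library size only. Neither passed adjustment with all libraries. Control 9 decided the TMM values: without it they were 0.012 and -0.21, and with library size only -0.56 and -0.79. Under library size scaling Igkc passed without Control 7, Control 11 or MSUS 2 (edgeR adjusted p = 0.0012, 0.0037 and 0.0229). Ighm passed there without Control 7 or Control 11 (edgeR adjusted p = 0.0192 and 0.0110). The 2 mitochondrial rRNAs gave a median of 0.96 with TMM and 0.09 with library size only. Hpgd, which encodes a prostaglandin-degrading dehydrogenase, was the 1 feature that DESeq2 called lower (log2 fold change -0.34, adjusted p = 0.0206), where edgeR gave an adjusted p of 0.842.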
